A study of Mus musculus with 6 samples.

Results

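The genes described here are 9 genes of antigen presentation by MHC class I, taken by name from a list: the heavy chains *H2-K1*, *H2-D1* and *H2-T23*, the light chain *B2m*, the peptide transporter genes *Tap1* and *Tap2*, the loading factor *Tapbp*, the trimming peptidase *Erap1* and the transcriptional coactivator *Nlrc5*. They are 9 of the 54446 genes in the deposited table, and all 9 were among the 12322 genes tested. The RNA came from B cells of the spleen, taken from mice labelled as *Tent5c* KO and from WT littermates, with 3 libraries per genotype. The strain was labelled mixed C57BL/6J X CBA in both groups. Mice of both sexes came from matings of heterozygotes and were 12 to 15 weeks old, and the KO was a germline line made by a mouse engineering facility, so that every cell type of the animal carried it. Naive B cells were isolated by negative selection and kept for 7 days, in both groups, in LPS at 20 µg/ml together with IL-4 at 20 ng/ml, which drive division, class switching and development towards antibody-secreting cells. Each replicate, which the labels call a batch, was 1 KO and 1 WT littermate, named pairs 1, 2 and 3 in the following. Total RNA was depleted of rRNA and sequenced in a strand-specific 75-nt paired-end mode.

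MHC class I molecules display peptides from the cell's own proteins to CD8+ T cells, and NK cells respond to their loss. The proteasome makes the peptides in the cytosol, the TAP transporter carries them into the endoplasmic reticulum (ER), ERAP1 shortens them, and a loading complex built around TAP and tapasin places them into the groove of a heavy chain bound to β2-microglobulin. NLRC5 acts in the nucleus with factors bound at the promoters of these genes. All members other than *Nlrc5* encode proteins that enter the ER, as immunoglobulin (Ig) chains do, and TENT5C is a cytoplasmic poly(A) polymerase studied in these cells for its action on ER-targeted mRNAs. The comparison therefore asked whether the mRNAs of this pathway differed between libraries labelled KO and WT.

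Depth ranged from 5393558 to 6793520 fragments on genes over the 6 libraries (median 6607728.5), and the 9 genes held between 0.635% and 0.852% of these fragments. *Tent5c* itself had 1993, 993 and 1170 normalized counts (fragments divided by a size factor per library) under the KO label in pairs 1, 2 and 3, and 1255, 767 and 1584 under the WT label. It was lower under the KO label in pair 3 only and higher in the other pairs, so its level alone does not check the genotype labels. Per the study's methods, the guide that made the KO also served to change catalytic residues of the protein, which places the cut in the coding sequence, and a count over all exons does not show whether that sequence is edited. Of 10 B cell and plasmablast markers, *Cd79b* and *Ms4a1* had at least 5630 and 9152 normalized counts in every library. *Cd79a* had 1219 to 1611, *Jchain* 2171 to 8096 and *Sdc1* 35.5 to 72.2. Log2 fold changes of this list ran from −0.47 to 0.19, with a median of −0.0096. At an unadjusted p-value under 0.05 from limma, 1 was lower under the KO label, *Cd79a* (−0.21), and 0 were higher. Of 10 T and NK cell markers, 8 stayed at or under 10.8 in every library, the T cell receptor genes *Cd3e*, *Cd3d* and *Cd3g* among them, while *Thy1* had 275 to 445 and *Lck* 60.2 to 166. The sum of this list was between 456 and 559 in libraries labelled WT and between 456 and 546 in those labelled KO. Of 10 myeloid markers, 7 stayed at or under 6.02, with *S100a8*, *S100a9* and *Fcgr1* at 0 in all 6 libraries. The others were *Lyz2* (2.86 to 85.9), *Cd68* (26.4 to 75.9) and *Adgre1* (14.3 to 37.8), whose 3 estimates were all negative with a median log2 fold change of −0.50 and 0 past an unadjusted p-value under 0.05. The sum of the myeloid list was between 117 and 169 under the WT label and between 70.5 and 160 under the KO label, and its part in the results was not tested. No erythroid gene of 7 was above 4.72. In bulk RNA, a change in the share of a cell type and a change in RNA per cell cannot be told apart.

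No difference between the libraries labelled KO and WT was called for any of the 9 genes. The test was limma on log2(normalized count + 1) over all 12322 genes averaging 10 or more normalized counts, with the pair as a block and Benjamini-Hochberg adjustment, and the adjusted p-values of the 9 genes lay between 0.970 and 0.992. With p-values left unadjusted and a threshold of 0.05, limma, edgeR and DESeq2 each had 0 of the 9 genes past it. Over all genes tested, limma had 3.03% past it and lower under the KO label and 1.67% higher, and edgeR 2.99% and 1.62%. DESeq2 had 1.79% and 0.273% of the 9894 genes to which it gave an adjusted p-value. At an adjusted p-value under 0.05, 0.0% of all genes were called in either direction by limma and by edgeR, while DESeq2 called 0.222% lower and 0.0101% higher among the 9894 genes it adjusted, none of them a member. The median log2 fold change of the 9 genes was −0.05, beside 0.00067 over all genes tested. Of the 9 genes, 6 had a negative estimate and 3 a positive one, and the estimates ran from −0.15 for *B2m* to 0.13 for *Nlrc5*.

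Levels between genes were compared per kb of annotated exon. *B2m* was the highest with 11976 ± 1179 normalized counts per kb (SD, n = 6 libraries), 2.23 times *H2-K1* at 5370 ± 483. *H2-D1* followed at 3830 ± 931, and its range over the libraries overlapped that of *H2-K1*. *H2-T23*, a nonclassical heavy chain known as Qa-1, had 1052 ± 115. The transporter subunit *Tap1* at 502 ± 60.7 and *Tapbp* at 444 ± 39.0 overlapped each other. *Tap2*, the other transporter subunit, was lower at 255 ± 9.20, followed by *Erap1* at 193 ± 9.31 and *Nlrc5* at 148 ± 10.8. The only neighbours in this order whose ranges overlapped were *H2-K1* with *H2-D1* and *Tap1* with *Tapbp*. Among the 9 genes, the structural components of the class I molecule thus stood above the loading factors, and the coactivator stood last.

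**Figure D1:**
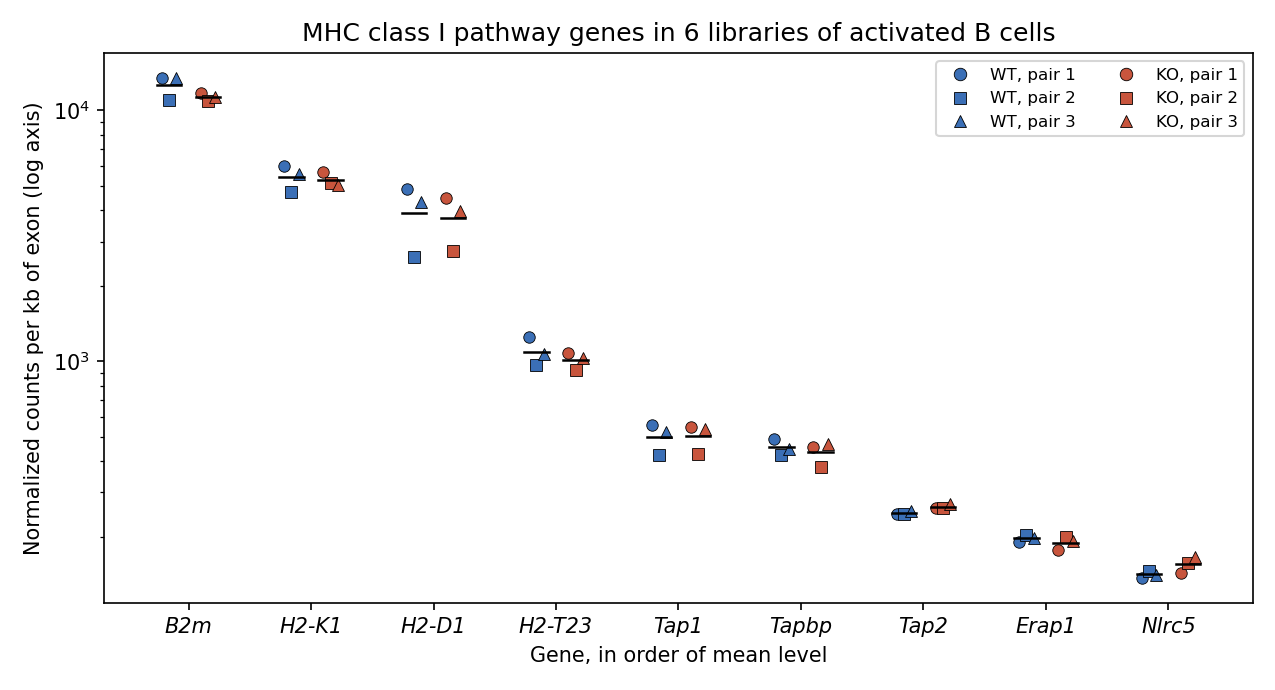
Level of the 9 MHC class I pathway genes in each library (y axis, normalized counts per kb of exon, log axis), in order of mean level; colour gives the labelled genotype, symbols the littermate pair and lines the mean of the 3 libraries of a group. *B2m* is highest and *Nlrc5* lowest, and for *H2-D1* both libraries of pair 2 lie under the other 4.

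The heavy chains hold the peptide in their groove and are the part of the molecule that T cells recognise. *H2-K1* (GRCm38 chr17:33996017-34000347, minus strand) had 16757, 15034 and 14841 normalized counts under the KO label in pairs 1, 2 and 3, and 17684, 13889 and 16459 under the WT label. The groups overlapped, and the library labelled KO was the higher one in pair 2 and the lower one in the other pairs. Its log2 fold change was −0.04 (standard error 0.08, 95% interval −0.22 to 0.15, adjusted p = 0.982 from limma). *H2-D1*, on the plus strand at chr17:35262730-35267499, had 11597, 7128 and 10233 under the KO label and 12491, 6735 and 11079 under the WT label. Pair 2 was low in both genotypes, and again the sign within pair 2 was the opposite of that within the other pairs. The log2 fold change of *H2-D1* was −0.05 (standard error 0.07, 95% interval −0.21 to 0.12, adjusted p = 0.974 from limma).

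*H2-T23*, on the minus strand at chr17:36029773-36032855, presents leader peptides of other class I molecules to receptors of NK cells. It had 3109, 2657 and 2983 normalized counts under the KO label and 3611, 2783 and 3085 under the WT label. It was lower in the library labelled KO of each pair, by log2 ratios of −0.22, −0.07 and −0.05, while the groups overlapped. Its log2 fold change was −0.11 (standard error 0.06, 95% interval −0.26 to 0.04, adjusted p = 0.970 from limma). Some sequence of the heavy chain genes is shared with relatives: 3.10% of the 75-mers in transcripts of *H2-K1*, 5.40% in *H2-D1* and 5.91% in *H2-T23* occur in another gene. The authors' filter on mapping quality removes fragments without a unique place, so the levels of these 3 genes may be underestimates.

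*B2m* encodes the invariant light chain of all class I molecules, on chromosome 2 at chr2:122147686-122153083 and so outside the MHC. It had 10077, 9403 and 9708 normalized counts under the KO label and 11588, 9464 and 11557 under the WT label. The libraries labelled WT of pairs 1 and 3 stood above the other 4 libraries, and in pair 2 the littermates were nearly level. The log2 ratios within pairs were −0.20, −0.01 and −0.25. Its log2 fold change was −0.15 (standard error 0.07, 95% interval −0.33 to 0.02), with an unadjusted p of 0.0756 and an adjusted p of 0.970 from limma. This was the smallest p-value among the 9 genes.

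The TAP transporter is a heterodimer of TAP1 and TAP2 in the ER membrane, and its genes lie close to each other in the MHC. *Tap1*, at chr17:34187553-34197225 on the plus strand, had 2996, 2342 and 2950 normalized counts under the KO label and 3038, 2314 and 2861 under the WT label. Both libraries of pair 2 were under the other 4, and the groups overlapped. The log2 fold change of *Tap1* was 0.01 (95% interval −0.12 to 0.15, adjusted p = 0.992 from limma). *Tap2*, at chr17:34203527-34216321 on the plus strand, had 985, 980 and 1015 under the KO label and 928, 926 and 957 under the WT label. It was the member with the least spread, its log2 ratios within pairs being 0.09, 0.08 and 0.08, and the only 1 of the 9 whose groups did not overlap, beside 3.39% of all genes tested that did so with the higher values under the KO label and 6.83% in either direction. For *Tap2* the log2 fold change was 0.08 (95% interval −0.06 to 0.23, adjusted p = 0.970 from limma).

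Tapasin, encoded by *Tapbp*, bridges the heavy chain to TAP, and ERAP1 trims the amino end of peptides in the ER. *Tapbp*, at chr17:33915899-33929292 on the plus strand, had 1658, 1376 and 1703 normalized counts under the KO label and 1778, 1532 and 1625 under the WT label. The sign differed between pairs, with log2 ratios of −0.10, −0.15 and 0.07, and the log2 fold change was −0.06 (95% interval −0.23 to 0.10, adjusted p = 0.970 from limma). Its exons overlap those of *Zbtb22* by 149 bp on the same strand, so fragments in that stretch were not assigned to 1 gene with certainty. *Erap1*, on chromosome 13 at chr13:74639568-74693201, had 1284, 1446 and 1404 under the KO label and 1391, 1480 and 1435 under the WT label. It was lower in the library labelled KO of each pair by small amounts, with groups that overlapped and a log2 fold change of −0.06 (95% interval −0.20 to 0.08, adjusted p = 0.970 from limma).

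*Nlrc5*, on chromosome 8 at chr8:94434356-94527272, had 1218, 1328 and 1411 normalized counts under the KO label and 1165, 1242 and 1198 under the WT label. It was higher in the library labelled KO of each pair, with log2 ratios of 0.06, 0.10 and 0.24, and 1 library labelled WT lay within the range of the libraries labelled KO. For *Nlrc5* the log2 fold change was 0.13 (standard error 0.07, 95% interval −0.02 to 0.29), with an unadjusted p of 0.0850 and an adjusted p of 0.970 from limma. Over the 9 genes, 3 were lower in the library labelled KO of all 3 pairs (*H2-T23*, *B2m* and *Erap1*), beside 13.1% of all genes tested. Another 2 were higher in all 3 pairs (*Tap2* and *Nlrc5*), beside 11.7%, and 4 had mixed signs. Without pair 2, 5 of the 9 genes were lower in the remaining pairs, and after quantile normalization 1 was.

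**Figure D2:**
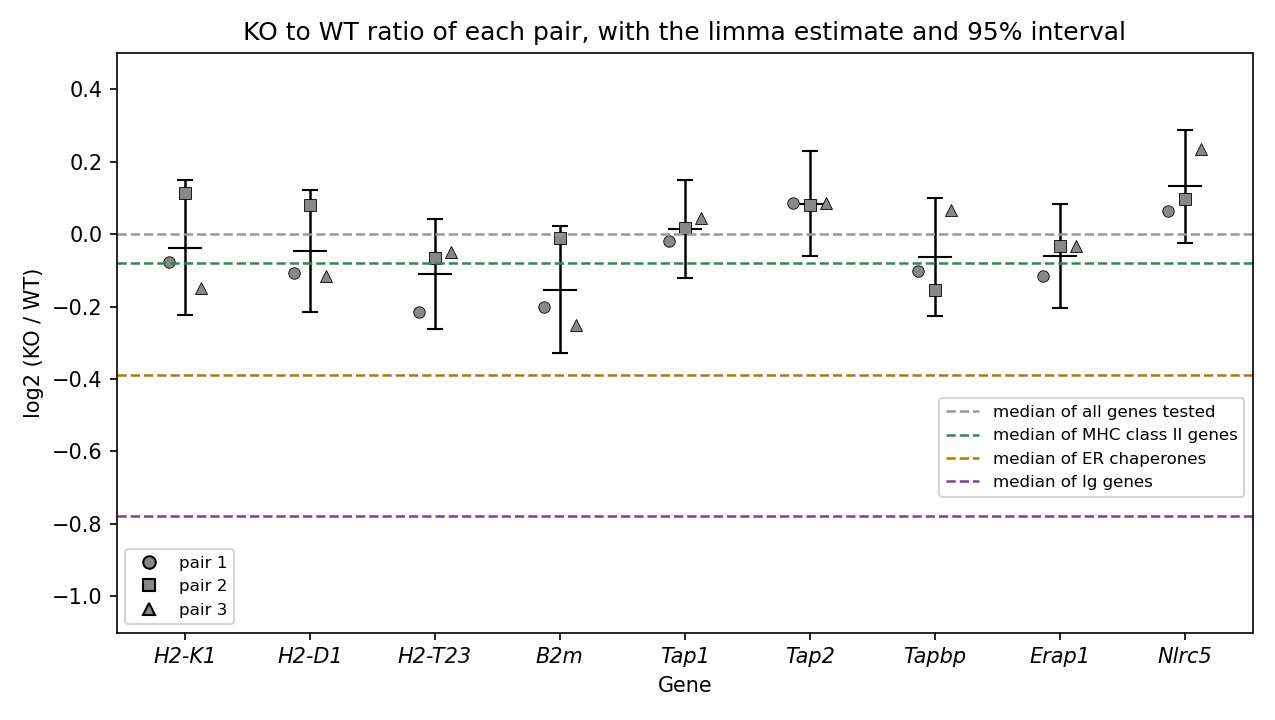
Log2 ratio of KO to WT (y axis) for each of the 9 genes, with grey symbols for the 3 littermate pairs and a black line and bars for the limma log2 fold change and its 95% interval. Dashed lines give the median log2 fold change of all genes tested (0.00067), MHC class II genes (−0.08), ER chaperones (−0.39) and Ig genes (−0.78), and all 9 intervals lie above the latter pair of medians and include 0.

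The intervals, each for a single gene, show how large a difference these 6 libraries allow with the pair as a block. The lowest bound of the 9 intervals was −0.33 for *B2m* and the highest bound was 0.29 for *Nlrc5*. Without the block the lowest bound of any member was −0.65. It was −0.35, −0.47 and −0.30 without replicates 1, 2 and 3. Ig genes, the mRNAs that the study examined most closely in these cells, had a median log2 fold change of −0.78 over the 201 genes tested, with 144 lower at an unadjusted p-value under 0.05 and 0 higher. The intervals of all 9 members lay above that median, also without the block and without each replicate in turn. They lay above the median of 13 ER chaperone genes as well, which was −0.39, with all 13 lower at an unadjusted p-value under 0.05. For the ER chaperones this held for 8 of the 9 members without the block, for 8 without replicate 2 and for 6 without replicate 3. By pair, the median log2 ratio of the 9 genes was −0.10, 0.02 and −0.03 in pairs 1, 2 and 3, and that of the Ig genes −0.32, −0.63 and −1.34. These are descriptions of lists measured in the same libraries, and no test of lists was made.

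The other genes of the pathway had list medians near 0, apart from the loading factors. Among the other class I heavy chain and class I-like genes, 14 of 25 were tested, their median log2 fold change was 0.01, and 0 were past an unadjusted p-value under 0.05 in either direction. The highest of them were *H2-Q4* (log2 fold change 0.05, 95% interval −0.11 to 0.21) and *H2-Q6* (0.07, −0.07 to 0.21). The 7 genes of the immunoproteasome and its activator, which supply peptides, had a median of −0.01 with 0 past that threshold. The catalytic subunit *Psmb8* had −0.01 and the activator subunit *Psme2* 0.03. The 19 regulators, which bind class I promoters or carry interferon signals, had a median of 0.03 with 0 past the threshold, *Irf8* having −0.01 and the class II coactivator *Ciita* −0.03. The 12 interferon-induced genes tested also had 0 past it, with a median of 0.03. The guanylate-binding protein genes *Gbp4* and *Gbp3* had the highest levels of these, with log2 fold changes of 0.10 and 0.23. The sign of *Gbp3* was mixed, with log2 ratios of −0.14, 0.34 and 0.50 in pairs 1, 2 and 3, and its estimate was 0.42 without replicate 1 and 0.10 without replicate 3.

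Of the other loading and quality control factors, 8 of 10 were tested, with a median log2 fold change of −0.12, and 2 were lower at an unadjusted p-value under 0.05 and 0 higher. Both are partners of tapasin in the loading complex that also serve the folding of other glycoproteins. *Calr*, which encodes the lectin chaperone calreticulin, had 6899, 6027 and 7773 normalized counts under the KO label and 7875, 7717 and 10315 under the WT label. It was lower in the library labelled KO of each pair, although the groups overlapped through a single library labelled KO. Its log2 fold change was −0.32 (standard error 0.07, 95% interval −0.48 to −0.15, unadjusted p = 0.00293 and adjusted p = 0.737 from limma). *Pdia3*, which encodes the disulfide isomerase ERp57, had 2407, 2045 and 2523 against 2599, 2257 and 3357. It too was lower in each pair, and its log2 fold change was −0.22 (SE 0.08, 95% interval −0.41 to −0.04, unadjusted p = 0.0255 and adjusted p = 0.970 from limma). *Canx*, encoding the chaperone calnexin that receives new heavy chains, had −0.11 (95% interval −0.26 to 0.04). No gene of this list was called after adjustment by limma, edgeR or DESeq2.

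MHC class II genes, whose products present peptides from the endocytic route, were set beside the class I genes as another presentation pathway whose proteins enter the ER. Their median log2 fold change was −0.08 over 11 genes, and 4 were lower at an unadjusted p-value under 0.05 and 0 higher: *H2-Eb1* and *H2-Aa* at −0.20, *H2-Ab1* at −0.19 and the invariant chain *Cd74* at −0.18, each with an adjusted p of 0.970 from limma. All 4 were lower in the library labelled KO of each pair. After quantile normalization *H2-Aa* had 0.02 and *Cd74* 0.16, and so the opposite sign. Among the ER chaperones *Ppib*, the prolyl isomerase cyclophilin B, had −0.44 and *Hspa5*, the Hsp70 of the ER, had −0.39, and the adjusted p-values from DESeq2 were 0.0494 and 0.0306 for these genes, which limma did not call.

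**Figure D3:**
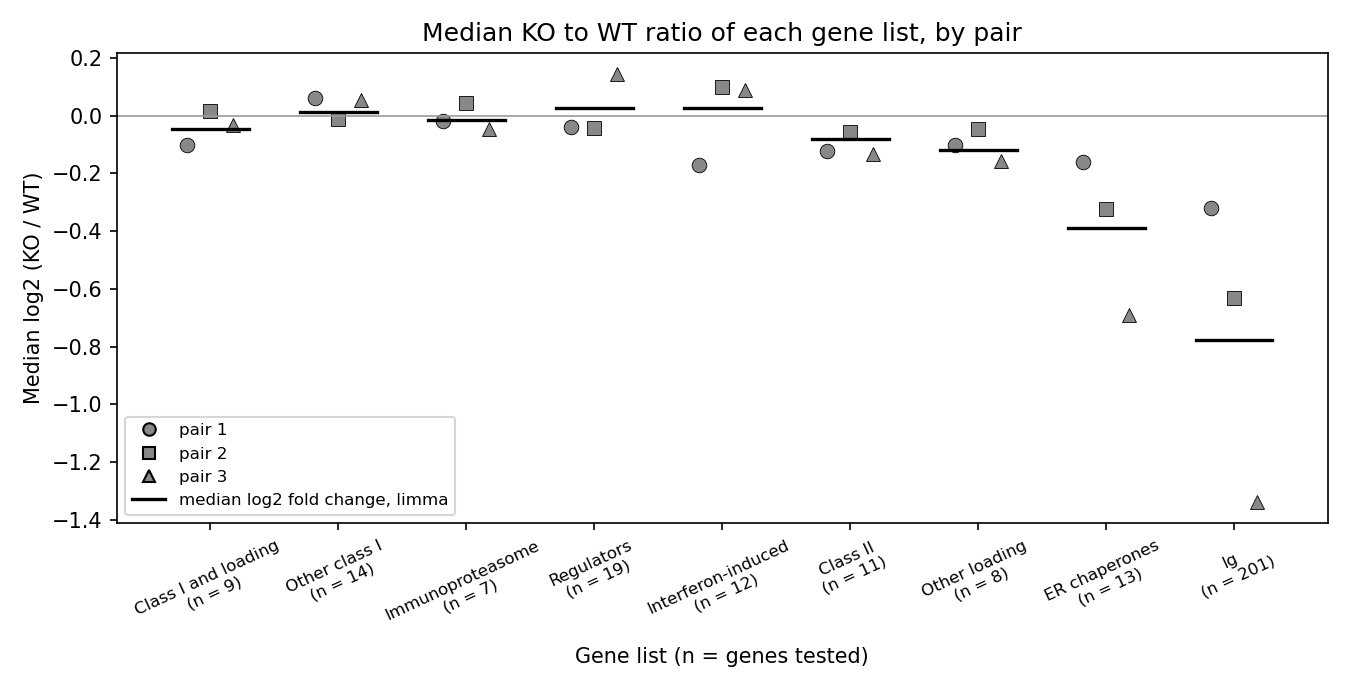
Median log2 ratio of KO to WT (y axis) of the 9 class I and loading genes and of 8 other gene lists (x axis, with the number of genes tested), for each littermate pair (symbols) and as the median limma log2 fold change (line). The class I lists lie within 0.2 of 0 in every pair, and the medians of the ER chaperones and Ig genes are negative in all 3 pairs.

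Several of the 9 genes separated the pairs in both genotypes. Both libraries of pair 2 were under the other 4 for 5 of the 9 genes (*H2-D1*, *H2-T23*, *B2m*, *Tap1* and *Tapbp*), beside 12.8% of all genes tested, and above them for 1 (*Erap1*), beside 12.1%. Both libraries of pair 1 were above the other 4 for 4 genes (*H2-K1*, *H2-D1*, *H2-T23* and *Tap1*), beside 8.27%, and under them for *Erap1*, beside 9.49%. Pair 3 was under the other libraries for 0 of the 9 genes, beside 6.15%, and above them for 0, beside 6.91%. The separation was widest for *H2-D1*, whose mean in pair 2 was 0.611 times the mean of the other 4 libraries, against 0.786 for *Tap1* and 0.851 for *H2-T23*. The ratio was 0.860 for *Tapbp* and 0.879 for *B2m*, which lies outside the MHC. *H2-K1* and *Tap2*, both in the MHC, had 0.880 and 0.981, and their pair 2 libraries were not both under the other 4.

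Other genes of the MHC separated pair 2 from the other libraries by larger ratios than the members did. Of those named here, *H2-Q1*, *H2-Q2*, *H2-Q5*, *Gm8909* and *Gm10499* were chosen after their values were seen. *H2-Ea-ps*, the class II Eα gene, had 3059 normalized counts in the library labelled KO and 3443 in that labelled WT of pair 2, while the other 4 libraries had at most 0.944. As background, C57BL/6J carries the H2 haplotype b, in which this gene is not transcribed, and CBA carries haplotype k, in which it is. The class I gene *H2-Q1* had 117 and 111 in pair 2 and 0 in the other 4 libraries. *H2-Q2* had 79.1 and 84.7 in pair 2 and at most 3.78 elsewhere, *Gm10499* 70.5 and 50.2 against at most 1.89, and *Gm8909* 54.3 and 48.1 against at most 3.78. In the other direction, *H2-Q5*, *H2-Q6* and *H2-Q7* had means in pair 2 of 0.462, 0.484 and 0.483 times those of the other libraries. Both littermates of pair 2 shared each of these values, so the separation followed the pair and not the labelled genotype. Each pair is also a batch, and the litter and the batch cannot be told apart.

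This separation was counted over the MHC. The stretch from the first to the last tested gene with an H2 symbol, chr17:33974659 to chr17:37274484, held 112 tested genes. Both libraries of pair 2 were at least 1.5 times above or under all the other libraries for 11 of them (9.82%). This compares with 200 of 12210 genes (1.64%) in the rest of the genome. For pair 1 this was 0.893% against 0.459%, and for pair 3 it was 0.0% against 0.311%. The reads were aligned to the C57BL/6J genome, and reads from another haplotype with more differences from it can be lost or placed in a related gene. Relatives share much sequence here, with 21.2% of the 75-mers of *H2-Q5* and 17.9% of those of *H2-Q6* found in other genes. The part of the haplotype, of alignment, of the batch and of other differences between the pairs in the low values of *H2-D1* in pair 2 was not tested. The ratios of KO to WT within pairs compare littermates, and in pair 2 both littermates had the *H2-Ea-ps* transcript.

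**Figure D4:**
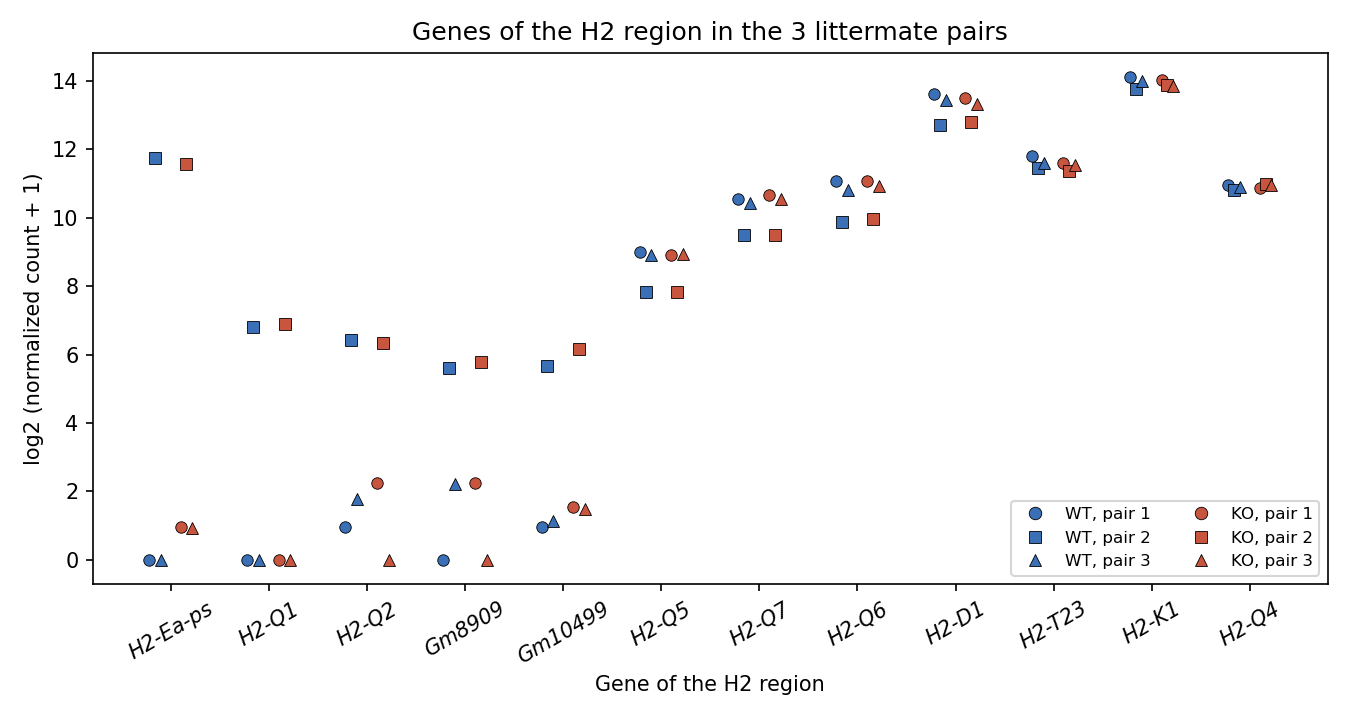
Level of 12 genes of the MHC on log2(normalized count + 1) (y axis) in the 6 libraries, with colour for the labelled genotype and symbols for the littermate pair. The squares of pair 2 are far above the other libraries for *H2-Ea-ps*, *H2-Q1*, *H2-Q2*, *Gm8909* and *Gm10499*, and under them for *H2-Q5*, *H2-Q6*, *H2-Q7* and *H2-D1* in both genotypes.

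The promoters of the members were read from a table of RefSeq promoter windows of 300 bases (GRCm38.p6), which matched 7 of the 9 members and not *Tap2* or *Nlrc5*. Class I promoters are known for an upstream enhancer that holds an NF-κB element beside an interferon response element. They are shown because the classical heavy chains carry the same pair of elements at the same spacing. Both heavy chains were highest in pair 1, as were *H2-T23* and *Tap1*, whose windows held neither of the motifs given next. In both windows, chr17:34000429-34000458 on the minus strand for *H2-K1* and chr17:35262923-35262952 on the plus strand for *H2-D1*, capitals mark the motifs GGGGATTCCCC and AGTTTCACTTC:
H2-K1: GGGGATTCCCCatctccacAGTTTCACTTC
H2-D1: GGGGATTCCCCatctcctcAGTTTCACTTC

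The letters were taken from the window of *H2-K1* after the windows had been read, and were searched on both strands of all windows. GGGGATTCCCC was in 10 of 32851 promoter windows (0.0304%) and AGTTTCACTTC in 17 (0.0517%), and each was in the windows of 2 members. The shorter interferon element GAAANNGAAA was in 3.44% of all windows and in those of 3 members, *H2-T23*, *B2m* and *Erap1*. In *B2m* (chr2:122147538-122147567, plus strand) it reads on the strand of the gene and in *Erap1* (chr13:74639839-74639868, plus strand) on the opposite strand, with capitals marking the fixed letters:
B2m: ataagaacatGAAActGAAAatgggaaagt
Erap1: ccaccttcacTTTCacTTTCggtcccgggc

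Nearer to the start of transcription, class I promoters hold a module bound by RFX, CREB or ATF and NF-Y proteins, with which NLRC5 acts. Its X2 and Y elements were searched as TGACG, 20 bases of any kind and ATTGG, on both strands. ATTGG is CCAAT read on the other strand, so this motif overlaps each CCAAT it holds. The module was in 31 of 32851 windows (0.0944%) and in those of 3 members, *H2-K1* (chr17:34000359-34000388, minus strand), *H2-D1* (chr17:35262993-35263022, plus strand) and *B2m* (chr2:122147609-122147638, plus strand), with capitals marking both elements:
H2-K1: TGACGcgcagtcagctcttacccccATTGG
H2-D1: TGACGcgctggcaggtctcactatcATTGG
B2m: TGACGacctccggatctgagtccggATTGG

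CCAAT alone was in 37.4% of all windows and in those of 6 of the 7 members. The 3 genes with the spaced module encode the heavy and light chains of the classical class I molecule. They had the highest levels per kb of the 9 genes, but *Tap2* and *Nlrc5* had no window, and a link was not tested. A match of letters is a description and not a site in use, and the windows come from the C57BL/6J reference and not from the mice sequenced.

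The genes whose levels were most like the profile of the 9 genes were found by Pearson's correlation over the 6 libraries with the mean of the members' centred log2 levels, among 7707 genes averaging 100 or more normalized counts. This search left out the members, the Ig genes and all listed genes, among them the other class I and class II genes. The profile was highest in the library labelled WT of pair 1, at 0.12 on the log2 scale, and lowest in the libraries of pair 2, at −0.14 for WT and −0.12 for KO. The 5 most alike were *Rbms1* (r = 0.994), *Acbd6* (0.990), *Zfp868* (0.989), *Irgq* (0.987) and *Slc25a51* (0.983). The points share 6 libraries and 3 littermate pairs among them, and the values of r are given as a description with no test.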

How the data were processed

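Per the study's methods, the authors trimmed reads with cutadapt, aligned them to GRCm38 with STAR (2.6.1a in the submitters' processing notes), counted properly paired, strand-specific fragments with a mapping quality of at least 10 on Gencode exons with featureCounts (Subread 1.6.3), and divided them by DESeq2 size factors. The table they deposited holds the scaled counts, a signal on the count scale, for 54446 genes. All values above 0 (100%) were whole multiples of 1 step per library (tolerance 0.01), which gave back the fragments. Symbols and positions came from Gencode vM21 on GRCm38 (54409 identifiers matched). Scaling to equal medians hides a change shared by most transcripts.

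limma 3.58.1 (R 4.3.3; lmFit, eBayes with a trend; two-sided, Benjamini-Hochberg) was run on log2(normalized count + 1) for 12322 genes averaging 10 or more, with the pair as a block. This scale understates changes of low genes. edgeR 4.0.16 and DESeq2 1.42.0 on the fragments, other scalings, pseudocounts and filters, no block and leaving out each replicate were 12 alternatives. The methods state that each replicate came from littermates of both genotypes. Deviations of same-numbered libraries from their group means had correlations of 0.328, 0.685 and 0.170 in pairs 1, 2 and 3. A chi-square per gene between the fragments of 2 libraries was 6.13 within pair 1 and 4.81 within pair 2. Within pair 3 it was 17.95. The KO library of pair 3 was nearer to both libraries of pair 1 (12.61 for KO and 11.81 for WT). It was also nearer to both of pair 2 (15.92 for KO and 17.43 for WT). The WT library of pair 3 was likewise nearer to both libraries of pair 1 (12.56 for KO and 15.58 for WT). For pair 3 these values do not show the pairing that the methods state. No libraries were duplicates. Scripts were tested on simulated data. Precision of low genes is limited by depth, and replicates measure 3 littermate pairs.

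The members and gene lists were chosen with earlier results of these data known. Genes named from a list were those at an unadjusted p under 0.05 (at most 5 per list) and the 2 with the highest mean, with *H2-Ea-ps* and *H2-Q7* as haplotype markers and the 5 genes most like the members' profile. Of the ER chaperones chosen by this rule, only the 4 that an alternative called are named. The rest of that list was not followed gene by gene through the alternatives. Nanopore data were not analysed here.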

Additional observations from a re-analysis of the deposited data

How the results depend on the processing

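Across the 12 alternatives, 104 of the estimates for the 9 genes kept their sign and stayed uncalled, and 4, in *H2-K1*, *H2-D1* and *Tap1*, turned their sign while uncalled. The count of 0 members at an unadjusted p-value under 0.05 held in all 12. After quantile normalization *H2-K1* had a log2 fold change of 0.15 and *H2-D1* of 0.00065. When a replicate was left out, *H2-K1* ran from −0.11 to 0.018 and *Tap1* from −0.0014 to 0.031, with the turned sign without replicate 3 in both. The cause was not tested. The adjusted p-values of the 9 genes were 0.815 or higher in every alternative. The members' median log2 fold change ran from −0.073 to −0.013 when a replicate was left out. The number of members lower in every pair was 1 after quantile normalization and 3 to 5 when a replicate was left out, which leaves fewer pairs to satisfy. In the fit with no replicate block the members' median was again −0.05, and no member changed its call, while the interval of 1 member then reached below the ER chaperone median. Over all genes, 0 were called lower and 0 higher by limma and edgeR, DESeq2 called 22 lower and 1 higher, and leaving out a replicate gave 0 to 168 lower and 0 to 3 higher, with the highest counts without replicate 1.

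Among the other genes, *Irf8* (0.0069), *Ciita* (0.017), *H2-Aa* (0.025) and *Cd74* (0.16) turned their sign after quantile normalization. Leaving out a replicate gave −0.054 to 0.011 for *Psmb8*, −0.072 to 0.019 for *Irf8* and −0.11 to 0.040 for *Ciita*. Called in an alternative were *Ppib* (−0.44) and *Hspa5* (−0.39) by DESeq2, and *Sdf2l1* (−0.60) and *Hsp90b1* (−0.57) without replicate 1. The lowest value of a member in any library was 926 normalized counts, so few fragments limit none of the 9 genes, and the comparison rests on 3 pairs.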

Other observations

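*Bcap29*, which encodes an ER membrane protein related to a class I export factor, had the widest range of the loading and quality control list and was singled out after its values were seen. It had 0, 397 and 1.82 normalized counts under the KO label in pairs 1, 2 and 3, and 168, 408 and 0 under the WT label. Littermates were thus level in pair 2 and at or near 0 in pair 3, and in pair 1 the transcript was present in 1 littermate and at 0 in the other. Its log2 fold change was −1.98 (95% interval −5.70 to 1.74, adjusted p = 0.970 from limma), and without replicate 1 it was 0.73. The latter draws on pair 3, where 1.82 and 0 lay under the level of 3 fragments (2.72 for KO and 3.61 for WT). It is therefore not read as a difference. *Msh5*, a mismatch repair gene in the MHC that was also chosen after its values were seen, had 193 and 156 normalized counts in the libraries of pair 2 labelled KO and WT, while the other 4 libraries had between 23.6 and 40.9, so that both littermates of pair 2 were high.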
